A study of Mus musculus with 6 samples.

Results

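Respiratory complex I, the NADH:ubiquinone oxidoreductase of the inner mitochondrial membrane, was examined here through the nuclear genes that encode its subunits and the factors that assemble it. The members are all protein-coding genes of the count table whose symbol begins with *Nduf* followed by a, b, c, s or v, which gave 46 of the 56262 genes listed. Of these, 36 encode subunits and 8, the *Ndufaf* genes, encode assembly factors. The remaining 2, *Ndufa4* and *Ndufa4l2*, carry the family name but stand outside complex I, since *Ndufa4* is now placed in complex IV and *Ndufa4l2* is its paralogue. All 46 passed the filter on low counts. RNA-seq covered the leg muscle of E18.5d mouse fetuses (embryonic day 18.5) in 3 wild type (WT) and 3 *SYISL* knockout (KO) libraries, and the question was how the transcripts of complex I differed between them. *SYISL*, the gene deleted, is a lncRNA within intronic sequence of *Synpo2*. It has no symbol in the annotation used, and its own level was not analysed here. Parents of the same genotype were mated, so KO fetuses grew in KO dams and WT fetuses in WT dams, and the WT mice came from an animal center while the KO mice came from the line of the authors. The genotype of the fetus, the genotype of the dam and the colony therefore cannot be told apart. The labels give neither litter nor strain nor whether fetuses were pooled, and the p-values measure only the spread between these libraries, which may be technical in part. The Y-linked signals given below differ between the WT libraries and between KO replicate 1 and the other KO libraries. They are alike in KO replicates 2 and 3, and whether these share material is not stated.

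Complex I takes electrons from NADH, passes them along a chain of iron-sulfur clusters to ubiquinone, and pumps protons across the inner membrane. Its peripheral arm holds the N module, where NADH is oxidised, and the Q module, where ubiquinone is reduced, and its membrane arm holds the proximal and distal pumping modules. Core subunits carry out the reaction, accessory subunits surround them, and assembly factors bind intermediates and leave before the enzyme is complete. Skeletal muscle fibers are rich in mitochondria, and the enzyme is known for its role in their oxidative metabolism.

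The libraries held 82054811 to 102233181 counts, so that a count of 0 allows up to 0.0293 to 0.0366 CPM (counts relative to the library's total, here without TMM scaling, and for counting error only). The tissue label fitted the fiber markers, whose summed level over 12 genes lay at 21600 to 24100 CPM in WT and 45300 to 55400 CPM in KO. Of these markers, 11 rose in KO, with a median log2 fold change of 1.13. In this paragraph a marker rose or fell at an edgeR adjusted p under 0.05. Of all genes tested, 21.9% rose and 23.1% fell at this threshold. Markers of other cell types also differed, some lists with calls in both directions. All 9 keratinocyte markers fell, from sums of 16100 to 24200 CPM in WT to 690 to 797 CPM in KO, and all 6 red blood cell markers fell, from 3930 to 5170 CPM to 546 to 665 CPM. All 6 adipocyte markers rose, from 105 to 137 CPM to 340 to 402 CPM. Of 6 chondrocyte markers 2 rose and 4 fell (367 to 469 CPM in WT, 318 to 323 CPM in KO), and of 5 fibroblast markers 4 rose (31100 to 33700 CPM in WT, 36500 to 37400 CPM in KO). Of 4 osteoblast markers 1 rose and 2 fell (1520 to 1560 CPM in WT, 1240 to 1470 CPM in KO), and of 4 myogenic progenitor markers 2 fell (229 to 248 CPM in WT, 207 to 212 CPM in KO). The 25% of osteoblast markers that rose is near the share of all genes, and lists of 4 genes are short. Of 4 brown adipocyte markers 3 rose (sums of 6.89 to 7.14 CPM in WT and 10.2 to 11.3 CPM in KO), while *Ucp1*, the defining uncoupling protein of brown fat, fell from a mean of 0.527 CPM to 0.129 CPM. These shifts accompany every complex I value given here, and their part in those values was not tested. In bulk tissue, a change in the number of fibers and a change in the RNA of each fiber cannot be told apart.

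Complex I subunits were higher in KO almost throughout. In the quasi-likelihood test of edgeR, adjusted after Benjamini and Hochberg, 33 of the 36 subunits rose at an adjusted p under 0.05, against a background of 21.9% of the 22071 genes tested that rose and 23.1% that fell. No subunit fell by edgeR, also none at an unadjusted p under 0.05, and DESeq2 and limma-voom gave the same count of 0. The rises were small. The median log2 fold change of the 36 subunits was 0.39, a rise of 30.7%, while the median over all genes tested was -0.00, and the subunits spanned 0.01 to 0.72. Only *Ndufb10* also passed 1.5-fold, where the background was 8.31% of genes higher and 8.39% lower. Without KO replicate 1, 4 subunits passed it (*Ndufb10*, *Ndufs1*, *Ndufv1* and *Ndufa11*, at 0.59 to 0.79). In 31 subunits every KO library lay above every WT library, and in none did they lie below, against 27.3% of genes tested that were separated upward and 28.5% downward. Summed over the 36 subunits, the libraries held 2290, 2200 and 2180 CPM in WT and 2630, 3200 and 3000 CPM in KO. The count of risers was 27 without KO replicate 2, when *Ndufa1*, *Ndufa2*, *Ndufb11*, *Ndufc1*, *Ndufs5* and *Ndufs6* had edgeR adjusted p-values of 0.069 to 0.189, and some of these calls were also lost without KO replicate 3 or a WT library.

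The KO libraries were not alike. KO replicate 1 was the lowest KO library in 35 of the 36 subunits, and KO replicate 2 was the highest in all 36. Relative to the WT mean of each gene, the median subunit stood at a log2 difference of 0.20 in KO replicate 1, 0.51 in KO replicate 2 and 0.41 in KO replicate 3, whereas the WT libraries stood at 0.04, -0.01 and -0.02. The fiber markers had the same order among KO libraries, at 0.94, 1.29 and 1.19 on the same scale. KO replicate 1 also held no Y-linked signal beyond 0.0747 CPM over 4 genes, with *Xist* at 837 CPM, while KO replicates 2 and 3 held 64.8 and 64.2 CPM of Y-linked genes together with *Xist* at 588 and 604 CPM. Among WT libraries, replicate 1 held 166 CPM of Y-linked genes and replicate 2 only 0.0242 CPM, and their subunit medians differed by little, as given above. WT replicate 3 held both signals, with 69.8 CPM of Y-linked genes and *Xist* at 413 CPM, as KO replicates 2 and 3 did. Libraries with both signals may hold RNA of more than 1 fetus, which the labels do not state. The part of sex in the order of the KO libraries was not tested.

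**Figure D1:**
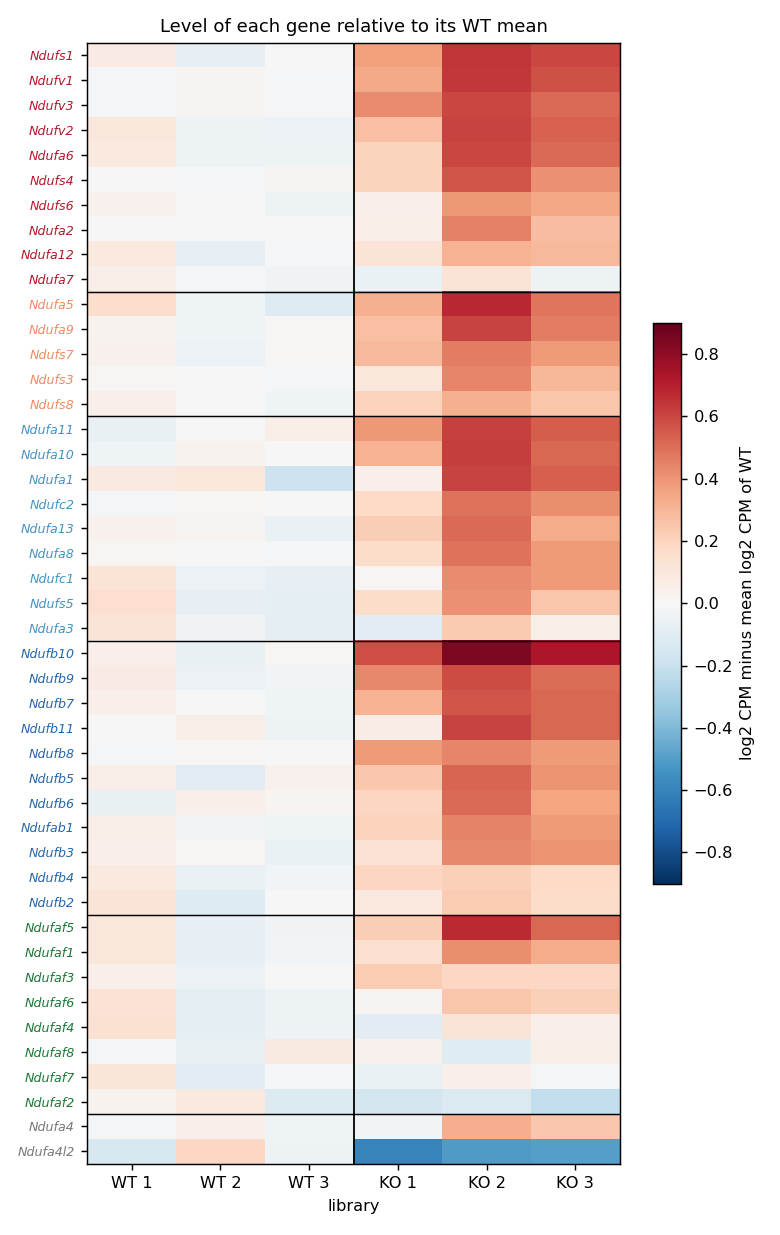
Each row is a gene and each column a library, and the colour gives log2 CPM minus the mean log2 CPM of the 3 WT libraries, from blue (lower) to red (higher). Label colours mark the N module (dark red), Q module (orange), proximal arm (light blue), distal arm (dark blue), assembly factors (green) and genes outside complex I (grey). All but a few subunit rows are red in KO and palest in KO 1, several assembly factor rows stay pale, and *Ndufa4l2* is blue in KO.

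The N module, which oxidises NADH, had 9 of 10 subunits higher in KO, with a median log2 fold change of 0.42. *Ndufs1*, the largest core subunit and a carrier of iron-sulfur clusters, measured 111, 100 and 105 CPM in WT and 136, 164 and 160 CPM in KO. The groups did not overlap, and the log2 fold change was 0.54 ± 0.071 (SE, edgeR adjusted p = 0.000225). *Ndufv1*, which binds NADH and the flavin cofactor, measured 59.1, 60.6 and 59.2 CPM in WT and 75.6, 92.5 and 88.9 CPM in KO. Its 3 WT values lay within 1.5 CPM of each other, far below the lowest KO value, and the log2 fold change was 0.52 ± 0.067 (SE, edgeR adjusted p = 0.000199). *Ndufv2*, the third core subunit of the module, measured 118, 107 and 106 CPM in WT and 133, 168 and 159 CPM in KO. KO replicate 1 was again nearest to WT, and the log2 fold change was 0.48 ± 0.083 (SE, edgeR adjusted p = 0.00129).

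Accessory subunits of the N module ranged more widely than its core. *Ndufv3* rose with a log2 fold change of 0.51, *Ndufa6* with 0.44 and *Ndufs4*, a subunit whose loss is used as a mouse model of Leigh syndrome, with 0.40. *Ndufs6* and *Ndufa2* each rose with 0.27 and *Ndufa12* with 0.24. *Ndufa7* was the exception, at 53, 50.5 and 49.9 CPM in WT and 49.1, 55.7 and 49.6 CPM in KO. The KO values of *Ndufa7* lay on both sides of the WT values, and the log2 fold change was 0.01 with a 95% interval of -0.11 to 0.13 (edgeR adjusted p = 0.902). That interval lies below the median of the subunits.

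All 6 subunits of the Q module, where electrons reach ubiquinone, rose in KO, with a median log2 fold change of 0.42. *Ndufs7*, the carrier of the last iron-sulfur cluster of the chain, measured 51.1, 48.1 and 50.2 CPM in WT and 60.9, 68.6 and 64.8 CPM in KO, without overlap (log2 fold change 0.38, edgeR adjusted p = 0.000211). *Ndufs3* and *Ndufs8* rose less. *Ndufs3* measured 49.5, 49.2 and 48.4 CPM in WT and 52.7, 66.5 and 60.2 CPM in KO (log2 fold change 0.29, edgeR adjusted p = 0.00994). *Ndufs8*, a further iron-sulfur protein, measured 50.3, 48.7 and 47.5 CPM in WT and 56.4, 61 and 57.9 CPM in KO (log2 fold change 0.26, edgeR adjusted p = 0.000954). Both were separated between genotypes, with KO replicate 1 lowest among KO. The accessory subunits *Ndufa5* and *Ndufa9* rose with log2 fold changes of 0.50 and 0.45. Taking the N and Q modules together, all 7 nuclear core subunits rose, with a median log2 fold change of 0.48, beside 26 of 29 accessory subunits with a median of 0.37.

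In the proximal part of the membrane arm, 8 of 9 accessory subunits rose, with a median log2 fold change of 0.36. *Ndufa11*, a membrane subunit, measured 33.3, 35.1 and 36.5 CPM in WT and 45.8, 53.6 and 51 CPM in KO. The groups did not overlap, and the log2 fold change was 0.52 ± 0.062 (SE, edgeR adjusted p = 0.000116). *Ndufa10* rose with a log2 fold change of 0.49, *Ndufc2* with 0.37, *Ndufa13* (also known as GRIM-19) with 0.36, *Ndufa8* with 0.35 and *Ndufs5* with 0.27. *Ndufa3* was at the WT level, with 108, 97.2 and 93.6 CPM in WT and 93.2, 117 and 103 CPM in KO. Its groups overlapped on both sides (log2 fold change 0.07, 95% interval -0.12 to 0.25, edgeR adjusted p = 0.536). *Ndufc1* passed only narrowly, with a log2 fold change of 0.28 (edgeR adjusted p = 0.0489) and an overlap between KO replicate 1 at 33.6 CPM and WT replicate 1 at 36.4 CPM.

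*Ndufa1* and *Ndufb11* lie on the X chromosome and had the largest standard errors among the subunits, 0.13 and 0.12. *Ndufa1* measured 30.6, 31.1 and 25.4 CPM in WT and 29.9, 44.1 and 41.9 CPM in KO, so that KO replicate 1 lay within WT (log2 fold change 0.41, edgeR adjusted p = 0.0316). With DESeq2 the adjusted p of *Ndufa1* was 0.0797. *Ndufb11* measured 83, 86.5 and 80.7 CPM in WT and 87.2, 127 and 119 CPM in KO, with KO replicate 1 just above the highest WT value (log2 fold change 0.41, edgeR adjusted p = 0.0163). WT replicates 1 and 2, which differed in Y-linked signal, were close to each other for both genes, with 1 library of each kind, and the part of sex in these values was not tested.

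Of the 11 members of the distal membrane arm, 10 rose, with a median log2 fold change of 0.39. *Ndufb10*, an accessory subunit on the intermembrane side, showed the highest rise of all members. It measured 90.7, 83.9 and 88.6 CPM in WT and 131, 157 and 145 CPM in KO. The lowest KO value lay far above the highest WT value, and the log2 fold change was 0.72 ± 0.065 (SE, edgeR adjusted p = 1.91e-05), or 1.65-fold. *Ndufb9* measured 69.5, 63.6 and 64.8 CPM in WT and 88.9, 99 and 93.2 CPM in KO, again without overlap (log2 fold change 0.51 ± 0.051 SE, edgeR adjusted p = 3.93e-05). *Ndufb7* followed with a log2 fold change of 0.47, *Ndufb8* with 0.40, *Ndufb5* with 0.39, *Ndufb6* with 0.36 and *Ndufb3* with 0.33. *Ndufab1*, the mitochondrial acyl carrier protein that also serves fatty acid synthesis, rose with 0.35, and *Ndufb4* with 0.19. *Ndufb2* did not pass the test, at 16.8, 14.3 and 15.6 CPM in WT and 16.5, 18.2 and 17.4 CPM in KO (log2 fold change 0.16, edgeR adjusted p = 0.098), and KO replicate 1 lay within WT. The 4 modules thus had medians between 0.36 and 0.42, a narrower range than the subunits within any of them.

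**Figure D2:**
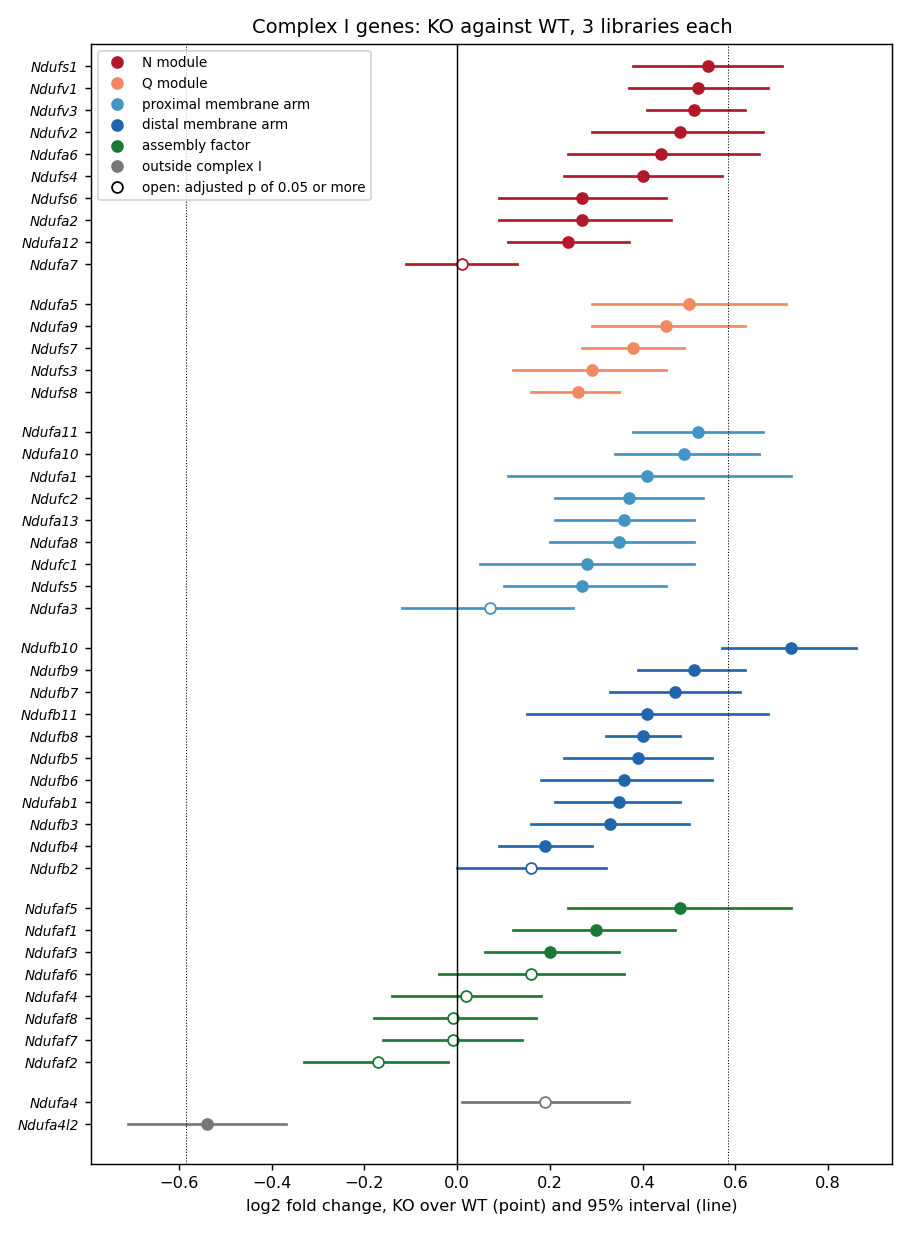
Points give the log2 fold change of KO over WT for each gene shown and lines its 95% interval, grouped by module. Filled points passed an adjusted p of 0.05, open points did not, and dotted lines mark 1.5-fold in either direction. *Ndufb10* at 0.72 is the only point beyond the upper dotted line, and 5 of the 8 assembly factors are open.

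The assembly factors did not move as a block. Of the 8 *Ndufaf* genes 3 rose (37.5%, against the background of 21.9%), with a median log2 fold change of 0.09, beside 33 of 36 subunits (91.7%) with a median of 0.39. The *Ndufaf* median was 0.16 without WT replicate 1, 0.05 without WT replicate 2 and 0.14 without KO replicate 1. None fell at an adjusted p under 0.05 by edgeR, DESeq2 or limma-voom, and 1 fell at an unadjusted p under 0.05 by each of them. The count of risers was 1 without KO replicate 2 or without KO replicate 3, and *Ndufaf2* fell at an adjusted p of 0.0308 without WT replicate 3. Summed over the 8 genes, the libraries held 123, 111 and 112 CPM in WT and 116, 132 and 126 CPM in KO, and the groups overlapped. Set against the sum of the subunits, the assembly factors held 53.9, 50.4 and 51.5 CPM per 1000 CPM of subunits in WT and 44.1, 41.3 and 42 in KO. Every KO library lay below every WT library in this ratio, with means of 51.9 ± 1.81 and 42.5 ± 1.44 (SD, n = 3 each). An exact permutation test of 3 against 3 cannot give a p below 0.1, and no test was made of this ratio, since the members were chosen with earlier results of these data known.

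Among the factors that rose, *Ndufaf5*, which hydroxylates an arginine of *Ndufs7*, measured 12.4, 11 and 11.3 CPM in WT and 13.5, 18.4 and 16.5 CPM in KO. KO replicate 1 stood just above WT, and the log2 fold change was 0.48 ± 0.11 (SE, edgeR adjusted p = 0.00527). *Ndufaf1*, a component of the complex that assembles part of the membrane arm, measured 19.8, 17.5 and 18.1 CPM in WT and 20.4, 24.6 and 23.2 CPM in KO (log2 fold change 0.30, edgeR adjusted p = 0.0116). Its groups were barely separated, and the adjusted p was 0.0574 without KO replicate 2 and 0.0531 without KO replicate 3. *Ndufaf3*, which acts on the Q module together with *Ndufaf4*, measured 6.15, 5.75 and 5.99 CPM in WT and 6.99, 6.79 and 6.79 CPM in KO. This was a separation at a low level (log2 fold change 0.20, edgeR adjusted p = 0.0283), and the call was lost with DESeq2 (adjusted p = 0.0648) and with any library but WT replicate 1 left out in turn (adjusted p of 0.0505 to 0.0866).

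The other 5 factors did not pass the test. *Ndufaf4*, the partner of *Ndufaf3*, measured 38.5, 33 and 33.9 CPM in WT and 32.9, 38 and 36.1 CPM in KO, with KO values on both sides of WT (log2 fold change 0.02, edgeR adjusted p = 0.836). *Ndufaf8*, the partner of *Ndufaf5*, measured 5.84, 5.62 and 6.25 CPM in WT and 6.07, 5.46 and 6.13 CPM in KO (log2 fold change -0.01, edgeR adjusted p = 0.962). Thus each of these partner pairs held a factor that rose and a factor that did not pass, but the difference within a pair was not tested. The 95% intervals of the log2 fold changes overlapped for *Ndufaf3* (0.06 to 0.35) and *Ndufaf4* (-0.14 to 0.18). They did not overlap for *Ndufaf5* (0.24 to 0.72) and *Ndufaf8* (-0.18 to 0.17). *Ndufaf6*, which acts early in assembly, measured 6.52, 5.6 and 5.75 CPM in WT and 6.04, 7.05 and 6.89 CPM in KO (log2 fold change 0.16, edgeR adjusted p = 0.171). *Ndufaf7*, which methylates an arginine of a complex I subunit, measured 19.2, 16.6 and 17.7 CPM in WT and 17.1, 18.4 and 17.6 CPM in KO (log2 fold change -0.01, edgeR adjusted p = 0.903). In both genes the groups overlapped. The 95% intervals of the log2 fold changes of *Ndufaf4*, *Ndufaf7* and *Ndufaf8* reached no higher than 0.18, which is below the subunit median of 0.39.

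*Ndufaf2* had the lowest log2 fold change among the *Ndufaf* genes. It is a paralogue of the N module subunit *Ndufa12* and occupies its place in late intermediates. It measured 15, 15.6 and 13.5 CPM in WT and 13.1, 13.4 and 12.6 CPM in KO, while *Ndufa12* measured 81.8, 73.3 and 76.3 CPM in WT and 84.1, 95.5 and 94.2 CPM in KO. All KO values of *Ndufaf2* lay below those of WT, KO replicate 2 only just, and those of *Ndufa12* lay above. The log2 fold change of *Ndufaf2* was -0.17 ± 0.068 (SE, edgeR adjusted p = 0.0658), so it did not pass, and that of *Ndufa12* was 0.24 ± 0.058 (SE, edgeR adjusted p = 0.00784). The exons of *Ndufaf2* overlap the long noncoding RNA *B230220B15Rik* on the other strand over 65.6% of their bases.

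Of the 2 genes outside complex I, only *Ndufa4l2* lay outside the range of the subunits. *Ndufa4l2*, a gene known to be induced by hypoxia and to restrain complex I activity, measured 142, 178 and 152 CPM in WT and 103, 110 and 111 CPM in KO. Every KO library lay below every WT library, and the gene fell with a log2 fold change of -0.54 ± 0.075 (SE, edgeR adjusted p = 0.000325), a decrease of 31.3% that did not reach 1.5-fold. It was the only member that fell at an adjusted p under 0.05. *Ndufa4* measured 120, 125 and 118 CPM in WT and 119, 152 and 143 CPM in KO. KO replicate 1 lay within WT, and the gene did not pass the test (log2 fold change 0.19, edgeR adjusted p = 0.0782).

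Assembly factors without an *Ndufaf* name were listed separately. Of 12 such genes 11 were tested, 3 rose (27.3%, against a background of 21.9%) and 1 fell (9.09%, against 23.1%), shares that lie near or below those of all genes, and the median log2 fold change was 0.15. The risers were *Ecsit*, *Foxred1* and *Dmac2*, with log2 fold changes of 0.17 to 0.23. *Acad9*, a relative of the fatty acid dehydrogenases that works with *Ndufaf1* and *Ecsit* in the same assembly complex, measured 37.1, 45.4 and 39.6 CPM in WT and 24, 22.9 and 22.6 CPM in KO. The KO values were close together and well below WT, a log2 fold change of -0.81 ± 0.071 (SE, edgeR adjusted p = 1.61e-05), or a fall by 43.1%. WT replicate 2, the highest for *Acad9*, was also the highest WT library in the keratinocyte markers at 24200 CPM, and the part of that in the value was not tested. *Acad9* thus fell while *Ndufaf1* and *Ecsit* rose, but the call of *Ndufaf1* was lost without KO replicate 2 or KO replicate 3. Of the same list, *Tmem126b* and *Timmdc1* did not pass (log2 fold changes 0.08 and 0.05, edgeR adjusted p = 0.311 and 0.479).

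The rest of the respiratory chain gives a frame for these values. Of all genes tested, 21.9% rose and 23.1% fell at an edgeR adjusted p under 0.05, and 8.31% rose past 1.5-fold. The 7 subunits of complex I that the mitochondrial genome encodes had 4 risers and no fallers by edgeR, with a median log2 fold change of 0.27. Of these *mt-Nd4l* passed 1.5-fold, from a mean of 120 CPM to 183 CPM. It ends at base 10173 of the mitochondrial genome, past the first base of *mt-Nd4* at 10167. *mt-Nd4* had a mean of 3820 CPM in WT and a log2 fold change of 0.27. How reads over both genes were counted was not examined, so the value of *mt-Nd4l* is uncertain. All 4 complex II subunits rose (median 0.55), all 9 nuclear complex III subunits rose (median 0.37), 10 of 13 in complex IV (median 0.39) and 13 of 14 tested in complex V (median 0.37). The nuclear complex I median of 0.39 lay within the range of these medians. Its highest gene, *Ndufb10*, rose 1.65-fold, beside 1.67-fold for *Sdha*, the flavoprotein of complex II, 2.01-fold for *Cox6a2* and 3.96-fold for *Cox7a1*, the latter both muscle isoforms of complex IV subunits. The other genes past 1.5-fold were *Cyc1*, *Uqcrc2* and *Uqcrfs1* in complex III (1.53-fold to 1.59-fold), *Cox5a* and *Cox8b* in complex IV (1.64-fold and 2.51-fold), and *Atp5g1* and *Atp5g3* in complex V (1.6-fold and 1.59-fold). Against complex V, the summed complex I subunits held 701, 677 and 666 CPM per 1000 CPM in WT and 639, 674 and 651 in KO, and these ranges overlapped.

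**Figure D3:**
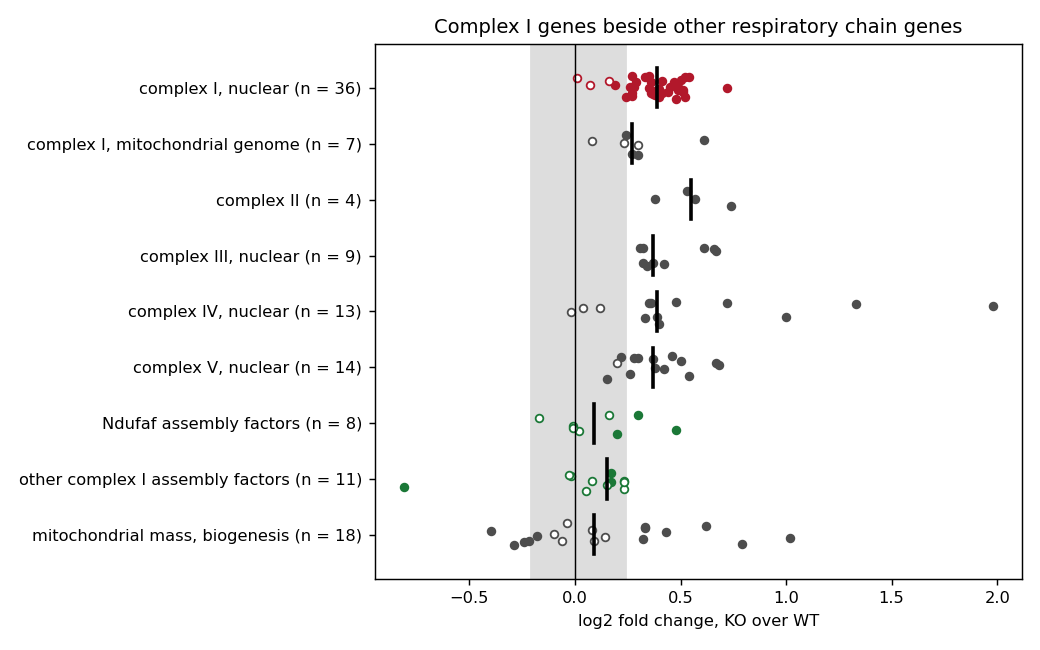
Each point is a gene, placed by its log2 fold change of KO over WT, filled where the adjusted p was under 0.05 and open otherwise, and each black bar is the median of its list. The grey band spans the middle range of all genes tested, from the lower to the upper quartile. Nuclear complex I (red, median 0.39) stands mostly to the right of the band, and the *Ndufaf* genes (median 0.09) and other assembly factors (median 0.15, both green) lie mostly inside it.

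Among 18 genes of mitochondrial mass and biogenesis 7 rose (38.9%, against a background of 21.9%) and 5 fell (27.8%, against 23.1%), with a median log2 fold change of 0.09. The share that fell is near that of all genes. *Ppargc1a*, the coactivator PGC-1α that is known to drive mitochondrial genes, rose from 8.81, 8.04 and 9.47 CPM in WT to 15.7, 18.5 and 19.1 CPM in KO. No library overlapped, with a log2 fold change of 1.02 ± 0.091 (SE, edgeR adjusted p = 1.78e-05). *Esrra*, a nuclear receptor that PGC-1α acts through, rose with a log2 fold change of 0.33, and its relative *Esrrg* with 0.79. *Cs*, the citrate synthase often used to gauge mitochondrial content, rose with 0.62. In contrast *Nrf1*, a factor that binds many respiratory gene promoters, measured 31.8, 33.5 and 31.5 CPM in WT and 27.1, 26.3 and 25.8 CPM in KO and fell with -0.29 (edgeR adjusted p = 0.000674). *Gabpa*, an ETS factor with a like role, did not pass (log2 fold change -0.06, edgeR adjusted p = 0.348). The rest of the list was also divided. *Vdac1*, *Vdac2* and *Vdac3* rose with 0.32 to 0.43, while *Pprc1*, *Tomm22* and *Hspd1* fell with -0.40, -0.24 and -0.22. The rise of *Cs* thus did not hold for the list as a whole.

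The rise of complex I was smaller than that of the fiber markers. Per 1000 CPM of the 12 fiber markers, the subunits held 95.2, 102 and 92.8 CPM in WT and 58.2, 57.7 and 54.6 CPM in KO. All KO libraries lay below all WT libraries, with means of 96.7 ± 4.77 and 56.8 ± 1.91 (SD, n = 3 each). KO replicate 1, the lowest KO library by subunit level, was the highest of the KO libraries by this ratio. Subunits were higher as CPM and lower per summed CPM of these markers in the same libraries. The largest terms of that sum in KO were *Acta1* (mean 4510 CPM in WT, 12500 CPM in KO) and *Myh8* (4710 CPM in WT, 14200 CPM in KO). Both had the steepest log2 fold changes among the markers, 1.47 and 1.59, while *Myh3* did not pass (-0.04, edgeR adjusted p = 0.651). The size of the fall in this ratio therefore depends on which markers are summed.

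**Figure D4:**
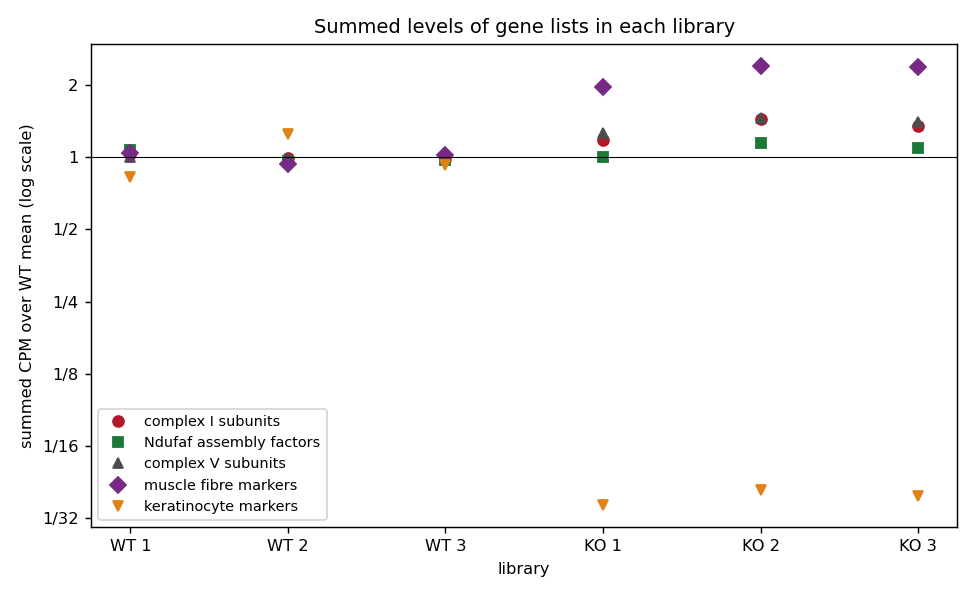
Each point is the summed CPM of a gene list in a library, divided by the mean of its 3 WT sums, on a log axis with base 2. In KO the complex I subunits (red circles) and complex V subunits (grey triangles) stand above 1, the *Ndufaf* genes (green squares) stand near 1, the fiber markers (purple diamonds) are near or above 2, and the keratinocyte markers (orange) are far below.

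Levels were compared between genes per kilobase of merged exons. Subunits had a median level of 34.9 CPM per kilobase in WT and 45.6 in KO, and assembly factors 5.78 in WT and 6.22 in KO. In WT, 33 of the 36 subunits stood above the highest assembly factor, *Ndufaf1* at 12.3 CPM per kilobase, and the exceptions were *Ndufab1*, *Ndufb2* and *Ndufb5*. *Ndufa4l2* was the highest member in WT at 144 CPM per kilobase, followed by *Ndufa3* at 97.5, *Ndufb11* at 91.9 and *Ndufa4* at 87.6. The order among members depended on the length used. *Ndufb7* has 4522 bases of merged exons but a principal transcript of only 623 bases, and its level rose from 13.4 to 97.3 CPM per kilobase when the shorter length was taken. On principal transcripts *Ndufa4* at 198 and *Ndufa3* at 194 CPM per kilobase stood above *Ndufa4l2* at 168 in WT. The medians in WT were then 58 CPM per kilobase for subunits and 9.81 for assembly factors. The gap between both classes thus held under either length, while the rank of a single member did not.

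**Figure D5:**
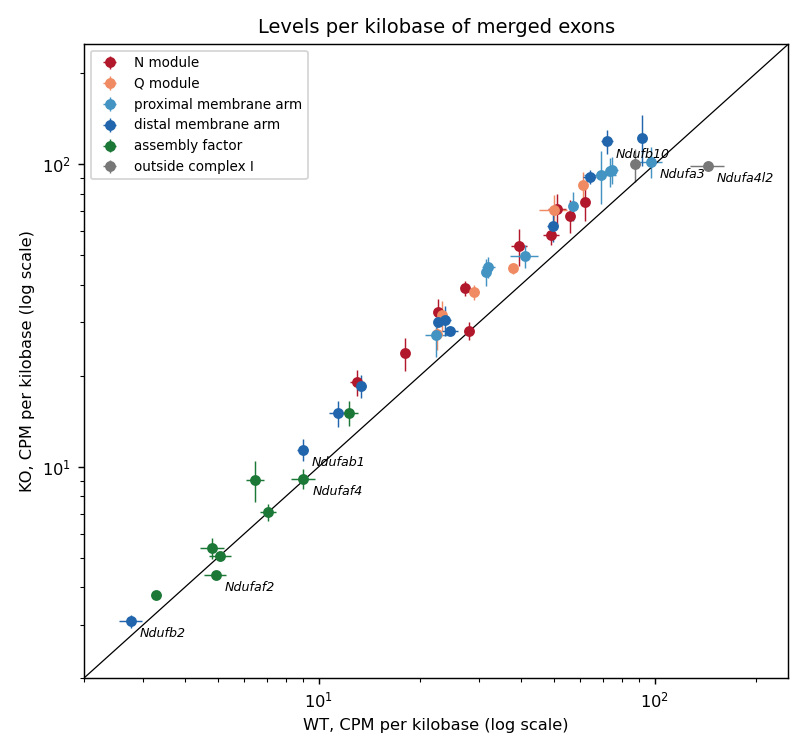
Each point is a gene at its mean level in WT (horizontal) and KO (vertical), in CPM per kilobase of merged exons on log axes, with SD bars over 3 libraries and the line of equality. Subunits (red, orange and blue) lie mostly above the line and to the right, assembly factors (green) lie at 3.28 to 12.3 CPM per kilobase in WT and close to the line, and *Ndufa4l2* lies below it.

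Promoter sequences were searched for motifs of *Gabpa*, *Esrra*, *Nrf1* and *Yy1*, a further factor of respiratory genes that fell in KO (log2 fold change -0.18, edgeR adjusted p = 0.00262). RefSeq promoters (GRCm38.p6, the assembly also called mm10, from 250 bases before to 50 bases after the start) were matched by symbol to 32 of 36 subunits, 7 of 8 assembly factors and 1 of the other 2 genes. Both strands were searched for an ETS motif (CCGGAAGT, the kind bound by *Gabpa*), a YY1 motif (AAGATGGCG), an ERR motif (TCAAGGTCA, the kind bound by *Esrra*) and an NRF1 motif (GCGCATGCG, which overlaps its own reverse complement). The YY1 letters occurred in 5 of 32 subunit promoters (15.6%) and 1 of 7 assembly factor promoters, against 1.40% of 32851 promoters in all and 2.24% of the 17718 promoters of genes tested. All 5 subunit matches lay after the start, between bases 23 and 44, on the strand of the gene. They are printed with flanks, since the capital letters, which mark the motif, hold the ATG of the protein, and in all 5 genes that ATG is an annotated start codon. The windows are chr3:51408915-51408943 on the minus strand (*Ndufc1*), chr6:126849097-126849125 on the minus strand (*Ndufa9*), chr10:80249463-80249491 on the plus strand (*Ndufs7*), chr13:73328433-73328459 on the minus strand (*Ndufs6*) and chr13:114388045-114388069 on the minus strand (*Ndufs4*), each 5′ to 3′.
Ndufc1: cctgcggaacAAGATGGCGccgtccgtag
Ndufa9: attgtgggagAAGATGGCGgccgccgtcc
Ndufs7: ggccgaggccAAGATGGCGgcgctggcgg
Ndufs6: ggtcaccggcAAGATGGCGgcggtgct
Ndufs4: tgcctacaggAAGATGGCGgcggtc
The log2 fold changes of these 5 genes ran from 0.27 to 0.45, within the range of subunits without the letters. The assembly factor with the letters was *Ndufaf8*, with a log2 fold change of -0.01. The ATG within its letters is not an annotated start codon. Of the bases before the start alone, no subunit promoter held the YY1 letters, against 0.606% of all promoters.

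The NRF1 letters occurred in 2 of 32 subunit promoters (6.25%) and 2 of 7 assembly factor promoters, against 1.75% of all promoters and 2.75% of those of genes tested. The 4 windows are shown because *Nrf1* itself fell in KO. They lie at chr17:56717692-56717721 (*Ndufa11*, plus strand), chr2:36049329-36049357 (*Ndufa8*, minus strand), chr4:24897960-24897989 (*Ndufaf4*, plus strand) and chr2:140170652-140170681 (*Ndufaf5*, plus strand), with the motif on either strand in capitals.
Ndufa11: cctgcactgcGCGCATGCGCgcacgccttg
Ndufa8: tcgctggagaCGCATGCGCagatggtacc
Ndufaf4: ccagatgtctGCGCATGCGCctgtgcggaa
Ndufaf5: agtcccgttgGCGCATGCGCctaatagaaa
Their log2 fold changes were 0.52, 0.35, 0.02 and 0.48 in that order, so genes with the letters were spread over most of the range. The ETS letters occurred in 1 subunit promoter (*Ndufs3*, 3.12%, against 3.89% of all promoters and 6.23% of those of genes tested). The ERR letters occurred in 0 of 32 (against 0.423% of all promoters and 0.288% of those of genes tested), which says only that these letters are not in these windows.

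Some members cannot be counted with certainty. The setting of strand in the counting is not stated, and the fiber gene *Tnnc2*, whose exons overlap *Ube2c* on the other strand over 74% of their bases, held only 51 to 133 counts in any library. Among members, exons were shared with a gene on the other strand over 65.6% of bases in *Ndufaf2* (*B230220B15Rik*), 39% in *Ndufb6* (*Smim27*) and 30% in *Ndufa13* (*Tssk6*), and with a gene on the same strand over 19.5% in *Ndufb9* (*Gm49356*). Their levels, and the share of reads that belongs to each partner, are uncertain to that extent. The gene of the distal subunit *Ndufb1* is listed in the annotation as the noncoding *Ndufb1-ps*, so the rule for members left it out. It measured 28, 26.4 and 24.7 CPM in WT and 26.1, 36 and 33.4 CPM in KO, with KO replicate 1 within WT (log2 fold change 0.27, edgeR adjusted p = 0.063). The other 4 noncoding genes with an *Nduf* symbol, among them copies of *Ndufab1* and *Ndufs6*, held 0 to 237 counts in any library.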

How the data were processed

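RNA was taken from leg muscle of E18.5d fetuses, 3 WT and 3 KO. According to the submitters' processing notes and the methods, the authors trimmed 150 bp paired-end reads with Trim Galore 0.6.6, mapped them to mm10 with HISAT2 2.2.1 and counted them per gene with featureCounts 2.0.1. The files hold these counts as deposited, raw and not normalized. The annotation and the strand setting are not given in the sources used here. Of 56262 gene IDs, 55227 were matched, without version numbers, to GENCODE M21, which gave symbols, exons and lengths.

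Counts were analysed with edgeR 4.0.16 in R 4.3.3, using filterByExpr, TMM factors (0.963 to 1.03), glmQLFit and glmQLFTest on genotype alone. Benjamini-Hochberg adjustment ran over all 22071 genes that passed the filter. The biological coefficient of variation was 7.68%. CPM values use TMM-scaled library sizes. Replicates of a genotype differed by more than counting noise, with a chi-square per gene of 5.22 (KO replicates 2 and 3) to 36.2 (WT replicates 1 and 2). A gene was called at an adjusted p under 0.05, and counted separately where the fold change also passed 1.5. Where a symbol had 2 IDs, the ID with more exon bases was used. The scripts were tested on simulated data.

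The members and lists were chosen with earlier results of these data known, and no list was tested as a set. Values per library are given for the nuclear core subunits, all *Ndufaf* genes, *Ndufa4*, *Ndufa4l2*, the 5 highest and 5 lowest members by log2 fold change, and members over 1.5-fold. For 1 gene no values are printed, though it is part of the counts and medians. Values per library of *Ndufa1*, *Ndufa3*, *Ndufa12*, *Ndufb2*, *Ndufb11* and *Ndufb1-ps* were added after their values were seen. As a rule, genes of other lists are named only where they passed 1.5-fold (marker genes are given as sums), or are *Ppargc1a*, *Esrra*, *Nrf1*, *Gabpa* or *Ucp1*. Further genes were named after their values were seen. These were *Yy1*, *Pprc1*, *Tomm22*, *Hspd1*, *Vdac1*, *Vdac2*, *Vdac3*, *mt-Nd4*, *Acta1*, *Myh3*, *Myh8*, *Tnnc2* and *Xist*. So were *Tmem126b*, *Timmdc1* and the 3 other assembly factors that rose. Alternatives to the TMM factors were RLE, upper-quartile and no factors (library size alone). Other alternatives were DESeq2 1.42.0, limma-voom (limma 3.58.1), no filter, a replicate block, a floor of 10 counts per library, leaving out each library, offsets from splines of length and GC content (5 degrees of freedom each), and fits that dropped each library's 10 most counted genes or the mitochondrially encoded genes.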

Additional observations from a re-analysis of the deposited data

How the results depend on the processing

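The subunits called higher numbered 31 to 34 under every alternative with all libraries, and 27 to 33 with a library left out, beside 33. Subunits over 1.5-fold numbered 4 with upper-quartile factors, 2 with length and GC offsets, and 1 to 4 with a library left out, beside 1. Among *Ndufaf* genes, 1 to 3 were called higher with a library left out, 1 was called lower (*Ndufaf2*) with library size alone and with at least 10 counts in every sample, and 0 to 1 with a library left out, when 0 to 1 also passed 1.5-fold upward. The *Ndufaf* median, 0.09, was 0.16 with upper-quartile factors, 0.02 with library size alone and 0.05 to 0.16 with a library left out. The difference between the medians of subunits and *Ndufaf* genes, 0.30, was 0.22 to 0.33 with a library left out, and the N module median was 0.34 to 0.53. With upper-quartile factors and library size alone, the medians were 0.22 and 0.08 for other assembly factors, 0.46 and 0.32 for complex IV, and 0.15 and 0.02 for mitochondrial mass and biogenesis, and library size alone gave 0.30 for complex V. With a library left out, complex IV ranged from 0.30 to 0.52 and mass and biogenesis from 0.06 to 0.13. Scaling moved the median of all genes by 0.06 (upper quartile) and -0.07 (library size).

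Genes near 0 changed sign. *Ndufaf4* was -0.05 with library size and -0.03 to 0.09 with a library left out, *Ndufaf8* was 0.06 with upper-quartile factors, 0.04 with length and GC offsets and -0.04 to 0.05 with a library left out, and *Ndufaf7* was 0.06 with upper-quartile factors and -0.06 to 0.04 with a library left out. *Ndufa3* was -0.00 with library size and -0.02 to 0.15 with a library left out, and *Ndufa7* was -0.06 and -0.05 to 0.05. Levels per kilobase, for subunits in WT and KO and *Ndufaf* genes in WT and KO, were 51.2, 64.3, 7.07 and 7.03 on the longest transcript, and 58.0, 76.9, 9.81 and 9.96 on the principal transcript, a length chosen after seeing the data. Before the start alone, 0 subunit promoters held the ETS or YY1 letters. Among promoters of genes tested, also chosen after seeing the data, 6.23% held the ETS, 2.24% the YY1, 0.288% the ERR and 2.75% the NRF1 letters. The cause of these differences was not tested.

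Replicate numbers were not treated as pairing the libraries, since same-numbered deviations correlated at -0.200, -0.134 and 0.047. With a replicate block, 32 subunits and 2 *Ndufaf* genes were called higher, and the calls lost were *Ndufc1* (adjusted p = 0.0997) and *Ndufaf3* (adjusted p = 0.0575).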
